A study of Mus musculus with 4 samples.

Results

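The positions described here are single cytosines of CpG dinucleotides outside dense CpG clusters that were methylated in iPSCs and in primary midbrain dopaminergic (mdDA) neurons but had a lower methylation level in dopaminergic neurons made from iPSCs (iPSC-DA neurons). They were chosen by their levels. An autosomal position had to have at least 10 methylation calls in each of the iPSC, iPSC-DA and mdDA libraries, and had to lie outside any run of at least 10 such positions spaced by less than 100 bp. It then had to have a level of at least 40% in iPSCs, at least 80% in mdDA neurons and under 40% in iPSC-DA neurons. Of 3940941 positions listed in any library, 726844 were autosomal with at least 10 calls in the 3 libraries, and 231370 of these were outside clusters. The iPSC and mdDA thresholds left 97579 candidate positions, of which 835 were under 40% in iPSC-DA neurons and are called under-methylated CpGs. This is 0.856% of the candidates. The other 96744 candidates, at 40% or more in iPSC-DA neurons, are called retained CpGs and serve as the comparison.

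DNA was cut with MspI at CCGG sites, converted with bisulfite and sequenced from the fragment ends (reduced representation bisulfite sequencing, RRBS) to a read length of 40 bases, with 1 library for each of 4 mouse cell populations. The iPSCs were made from embryonic fibroblasts of Pitx3 Gfp/+ mice with retroviral Oct4, Sox2, Klf4 and cMyc, and iPSC-DA neurons were differentiated from Pitx3 Gfp/+ iPSCs on MS5 stromal cells and sorted for PITX3-GFP after 4 weeks, whereas mdDA neurons were sorted for PITX3-GFP from Pitx3 Gfp/+ embryos at E14.5. NESTIN-GFP precursors, labelled as Nestin-GFP neurons, came from iPSCs of Nestin Gfp/+ mice and were collected at day 14, so that they differ from the iPSC-DA neurons in the iPSC line and in the reporter allele as well as in stage. The 3 populations that the choice of positions used were thus all heterozygous for Pitx3, and whether the sequenced iPSCs and iPSC-DA neurons came from the same clone is not given in the sources used here.

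In mammalian genomes most CpGs in CpG-poor sequence carry methylated cytosines, while CpG-dense islands are mostly free of methylation. Maintenance methyltransferase copies the mark to the new strand at replication, de novo methyltransferases set it at new positions, and it can be lost by failed maintenance or by oxidation through TET enzymes. Bisulfite reads 5-methylcytosine and 5-hydroxymethylcytosine alike, so that a level here counts both.

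The libraries held from 31419979 calls in NESTIN-GFP precursors to 79648099 in iPSC-DA neurons. A level is the percent of methylated calls at a position, and each strand of a CpG counts as its own position. With 1 library per population there was no spread between replicates and no test between populations was made. Intervals are 95% Wilson intervals, and since PCR copies of 1 molecule can be read more than once they cover counting error only. Positions are given as in the deposited files, whose chromosome ends fit the mouse build NCBIM37 (mm9). That build's sequence and annotation were not used here, so that regions are named by position, and genes and sequences at them were not analysed here.

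The levels that chose the under-methylated CpGs are given first, as a description. In iPSC-DA neurons their levels ran from 0% to 39.9% with a median of 34.4% and quartiles of 29.4% and 37.5%. Partial methylation was therefore the usual state: 395 of 835 positions (47.3%) were at 35% to under 40%, 215 at 30% to under 35%, 177 at 20% to under 30%, and 48 (5.75%) under 20%, of which 5 were at 0%. Their median in iPSCs was 73.9%, and the quartiles were 61.1% and 83.3%. Their median in mdDA neurons was 89.7%, and the quartiles were 84.5% and 94.4%. The mdDA level lay above the iPSC level at 739 of them (88.5%). Retained CpGs also had a higher median in mdDA neurons (95.6%) than in iPSCs (80%), and the mdDA threshold is the higher one. The median difference from iPSC-DA neurons was 56.7 percentage points for mdDA neurons and 41.2 points for iPSCs. At 110 positions (13.2%) the iPSC level was less than 20 points above the iPSC-DA level, and at 440 (52.7%) it was at least 40 points above. The shares of all candidates that meet these comparisons were not computed, so that the counts only describe the members. "Under-methylated" hence names a level below both other populations, mostly an intermediate one, and seldom an unmethylated cytosine.

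The threshold cut through a continuum of levels. The 395 members just inside it, at 35% to under 40%, had a median of 37.6% in iPSC-DA neurons, 74.3% in iPSCs and 90% in mdDA neurons. The 694 candidates just outside, at 40% to under 45%, had medians of 42.9%, 75% and 89.3%. Counting error was also not negligible at single positions, where the median number of calls was 44 in iPSC-DA neurons, 36 in mdDA neurons and 32 in iPSCs. The iPSC-DA interval lay wholly below the mdDA interval at 811 of 835 members, where 18.0% of all candidates met this, and wholly below the iPSC interval at 544, where 5.15% of all candidates met it. It lay wholly below 40% at 121 of the 835, or 0.124% of all candidates, a limit that the choice itself sets. The choice also favours the separation from the mdDA and iPSC intervals, so that these shares only describe the members.

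NESTIN-GFP precursors were the population that the choice of positions did not use, and there the under-methylated CpGs were highly methylated. Of the 835, 750 had at least 5 calls in this library, with a median of 26 calls. Their level ran from 42.9% to 100%, with a median of 95.7% (95% interval of the median 94.6 to 96.3) and quartiles of 88% and 100%. At 676 positions (90.1%, interval 87.8 to 92.1) it was at least 80%, and 287 (38.3%) were fully methylated in all their calls, beside 50.8% of retained CpGs. None of the 750 was under 40% (0%, interval 0 to 0.510), beside 0.0458% of all candidates. The median of NESTIN-GFP minus iPSC-DA levels was 61.1 points, a difference that the choice of iPSC-DA levels under 40% in part sets.

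**Figure D1:**
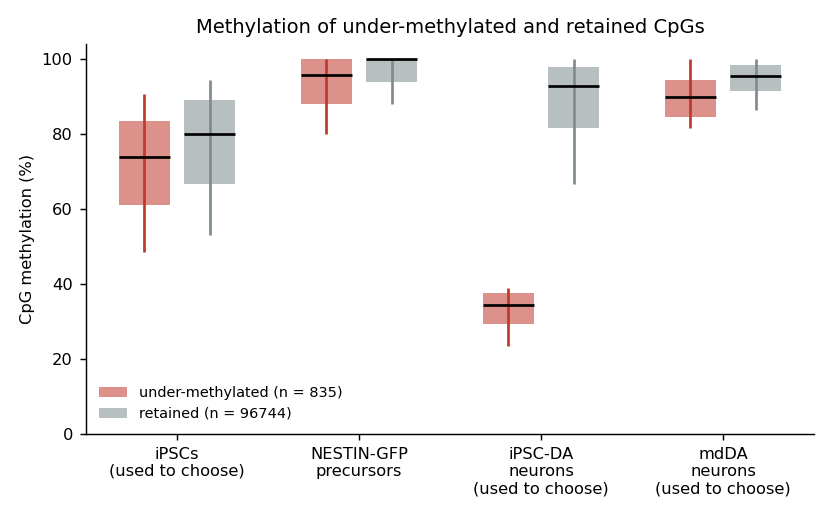
Methylation level in percent of the 835 under-methylated CpGs (red) and the 96744 retained CpGs (grey) in each of the 4 libraries, where boxes span the quartiles, black lines are medians and thin lines run from the 10th to the 90th percentile. The levels of iPSCs, iPSC-DA and mdDA neurons chose the positions, while NESTIN-GFP precursors, with medians of 95.7% and 100%, were not used to choose them.

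Retained CpGs were methylated still higher in the same precursors, with a median of 100% over 86570 positions and a mean of 95.9%, against a mean of 92.4% for under-methylated CpGs. Precursor levels under 80% were found at 74 of 750 under-methylated CpGs (9.87%, interval 7.93 to 12.2) and at 2437 of 86570 retained CpGs (2.82%, interval 2.71 to 2.93), where the share among all candidates was 2.88%. The lower mean was seen on 19 of 19 autosomes, with members at 88.3% to 95.6% and retained CpGs at 95.6% to 96.2%. It was also seen at matched levels in mdDA neurons. Among positions at 95% or more in mdDA neurons the means were 94.4% for 166 members and 96.7% for 47295 retained CpGs. At 80% to under 85% they were 91.6% for 211 members and 94.1% for 6394 retained CpGs. By mdDA class (from 80%, 85%, 90% and 95%), 8.06%, 15.1%, 10.4% and 6.02% of members were under 80% in the precursors. For retained CpGs these shares were 6.04%, 4.71%, 3.03% and 1.87%, so that members and retained CpGs were closest in the lowest class. With at least 40 precursor calls the means were 91.6% for 197 members and 95.6% for 31401 retained CpGs, so that the difference was also present at the deeper positions. Within the members the precursor mean was 91.5% for the 40 positions under 20% in iPSC-DA neurons and 92.6% for the 358 at 35% to under 40%. The share under 80% in the precursors was 12.5%, 12.1%, 10.8% and 8.10% for iPSC-DA levels under 20%, of 20% to under 30%, 30% to under 35% and 35% to under 40%. Just outside the threshold, at an iPSC-DA level of 40% to under 45%, 66 of 631 CpGs (10.5%) were under 80% in the precursors, beside 29 of 358 (8.10%) just inside.

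Positions chosen the opposite way gave precursor levels close to those of the members. A set of 1365 non-cluster CpGs had at least 40% in iPSCs, at least 80% in iPSC-DA neurons and under 40% in mdDA neurons, which is 1.64% of the 83043 that met the first pair of conditions. In the precursors 1219 of them had a median of 95.8%, and 156 (12.8%, interval 11.0 to 14.8) were under 80%. Their mean was 91.2%, beside 92.4% for the members. In this set 14 positions (1.15%, interval 0.685 to 1.92) were under 40% in the precursors, against 0 of the members.

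The lowest precursor levels were few and mostly shallow. A level under 60% was found at 10 of 750 members (1.33%), beside 0.238% of all candidates. The lowest, at chr11:118204618, had 42.9% in NESTIN-GFP precursors in 7 calls, 40% in iPSCs in 15 calls, 17.6% in iPSC-DA neurons in 34 calls and 84.6% in mdDA neurons in 13 calls. The best covered of the 10 in iPSC-DA neurons, chr15:101583042, had 58.3% in the precursors (36 calls), 88.7% in iPSCs (106 calls), 33.7% in iPSC-DA neurons (261 calls) and 85.4% in mdDA neurons (246 calls). At chr2:50456380 the precursors had 51.9% (27 calls), iPSCs 72.7% (22 calls), iPSC-DA neurons 38.4% (245 calls) and mdDA neurons 91.1% (79 calls). These positions were picked for low precursor levels among members, whose iPSC-DA and mdDA levels the choice limits. That both in vitro neural populations lay below mdDA neurons there therefore follows from the selection.

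At the 535 members whose iPSC-DA interval lay below both the iPSC and the mdDA interval, the precursor median was 95.7% over 489 positions, and 439 (89.8%) were at least 80%. At the 157 members with at least 100 calls in iPSC-DA neurons, the precursor median was 93.0% over 150 positions, and their iPSC-DA median was 35.9%. High precursor methylation was hence not limited to thinly covered members.

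Depth and level both moved with the share of candidates that were under-methylated. It fell from 1.30% at 10 to 19 iPSC-DA calls to 1.02%, 0.803% and 0.548% at 20 to 49, 50 to 99 and at least 100 calls. Members had a median of 44 iPSC-DA calls and retained CpGs one of 60. The share was 3.11% at an mdDA level of 80% to under 85% and 0.355% at 95% or more, so that members were commoner where the mdDA level was just over its threshold. It was 1.14% at an iPSC level of 40% to under 60% and 0.632% at 80% or more. The part of sampling error at the thresholds in these shares was not tested.

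The opposite strand of the same CpG is covered by other reads of the same library, and its iPSC-DA level was not used to choose that member. Adjacent positions could both be members, as at chr4:62393348 and chr4:62393349. Partners that were members were not left out, so that the share of low partners is in part set by the choice. Opposite strands were found as isolated pairs of adjacent positions. Of the 835 members 660 had such a partner listed in some library, but only 38 partners had at least 10 calls in iPSC-DA neurons. The median iPSC-DA level of these partners was 59.6% (interval of the median 50 to 68.4), with a range of 7.25% to 100% and quartiles of 49.0% and 74.1%. Partners of 6304 retained CpGs had a median of 93.8%. The partner was under 40% at 8 of 38 members (21.1%, interval 11.1 to 36.3) and at 179 of 6304 retained CpGs (2.84%, interval 2.46 to 3.28), where 2.95% of all candidates with a partner met this. It was 80% or more at 7 of 38 members (18.4%) and at 4976 of 6304 retained CpGs (78.9%).

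The partner lay above the member at 34 of 38, and the median difference was 28.5 points between an own median of 31.0% and the partner median. The members were chosen for a low level on their own strand, so that the direction of this difference is in part fixed by the choice. In the other libraries the partners had medians close to those of all members. They were 77.4% in iPSCs (41 partners), 95.1% in NESTIN-GFP precursors (402 partners) and 90.6% in mdDA neurons (39 partners). In the precursors 8 of the 402 partners (1.99%) were under 40%, against 0 of 750 members. Among partners of retained CpGs this share was 2.08%.

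CpGs around the members showed lower iPSC-DA levels that rose with distance up to the class of 200 to 999 bp. The covered non-cluster neighbours of each member were averaged within a distance class, and the median of these averages was 46.2% at 2 to 9 bp, 57.1% at 10 to 39 bp, 66.8% at 40 to 99 bp, 70% at 100 to 199 bp and 81.4% at 200 to 999 bp. With other members left out it was 54.6%, 61.3%, 69.2%, 72.0% and 81.7%. Around retained CpGs the same medians were 94.4%, 92%, 90.8%, 90.6% and 89.0%. The rise with distance was in iPSC-DA neurons. Neighbours within 9 bp of members had medians of 91.9% in mdDA neurons, 96.7% in NESTIN-GFP precursors and 78.8% in iPSCs, close to the 90.4%, 96.3% and 74.8% at 200 to 999 bp. Within 9 bp of retained CpGs these medians were somewhat higher, at 96% in mdDA neurons, 98.5% in NESTIN-GFP precursors and 80.4% in iPSCs. At 1000 to 9999 bp the iPSC-DA medians were 72.5% around members and 79.3% around retained CpGs. At 10000 to 99999 bp they were 68.3% around members and 67.8% around retained CpGs.

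**Figure D2:**
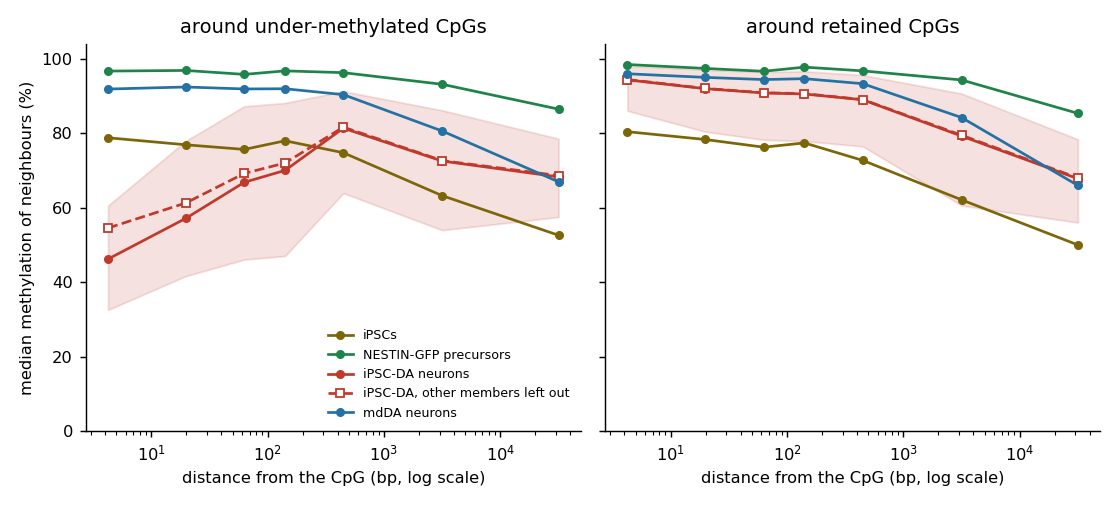
Median over CpGs of the mean methylation level in percent of their covered non-cluster neighbours, against distance in bp (log scale) from under-methylated CpGs (left) and retained CpGs (right), one line per library, with the quartile range of iPSC-DA neurons shaded and a dashed line for iPSC-DA neurons with other members left out. In iPSC-DA neurons the neighbours of under-methylated CpGs rose from 46.2% at 2 to 9 bp to 81.4% at 200 to 999 bp, while the other libraries held between 74.8% and 96.9% over these distances.

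Low neighbours were not the rule even within the length of 1 read, where neighbouring CpGs can lie on the same molecules. Of 600 members with a covered neighbour at 2 to 39 bp, 198 (33%) had one under 40%, against 3.51% of 72269 such retained CpGs. On the other side, 199 of the 600 (33.2%) had only neighbours at 60% or more, and 96 (16%) only neighbours at 80% or more, against 88.4% and 68.6% of retained CpGs. Under-methylation hence reached adjacent CpGs at some of the members and stood alone at others.

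The chance of meeting another under-methylated CpG fell with distance in the same way. Candidates were counted from each member in turn, so that one near several members counts more than once and a pair of members counts from both ends. Of 181 candidates counted at 2 to 9 bp from a member, 68 (37.6%) were members themselves. The share was 17.4% at 10 to 39 bp, 8.74% at 40 to 99 bp, 10.5% at 100 to 199 bp, 1.67% at 200 to 999 bp (4 of 240), 0.893% at 1000 to 9999 bp and 1.28% at 10000 to 99999 bp. Around retained CpGs it was 0.361% at 2 to 9 bp, 0.560% at 200 to 999 bp, 0.656% at 1000 to 9999 bp and 0.876% at 10000 to 99999 bp. The share around members was thus by far the highest within the nearest 200 bp, and beyond it stayed above that around retained CpGs by smaller amounts.

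**Figure D3:**
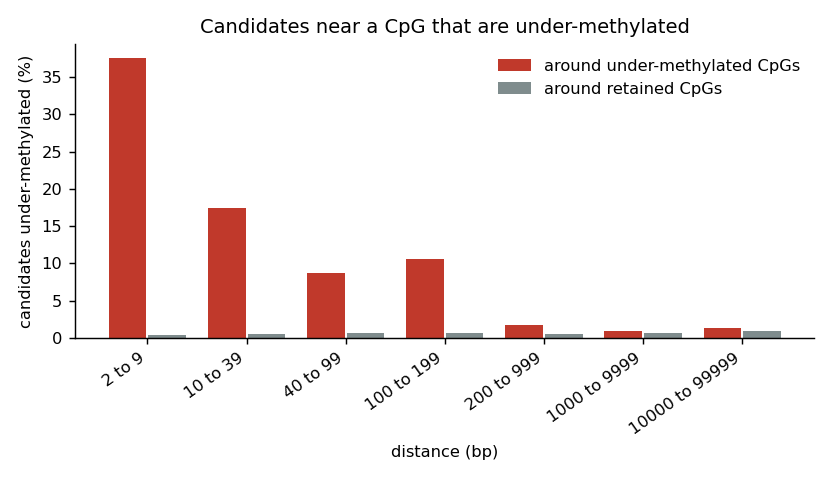
Percent of candidate CpGs that were under-methylated, by distance in bp from an under-methylated CpG (red bars) or from a retained CpG (grey bars), with candidates counted from each such CpG in turn. Around under-methylated CpGs it was 37.6% at 2 to 9 bp and 0.893% at 1000 to 9999 bp, beside at most 0.876% around retained CpGs.

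Most under-methylated CpGs had no other member close by on the chromosome. Members were only 0.856% of the candidates, and the grouping of an equally sparse set of candidates was not computed. Single here means without another member, whatever the level of other covered neighbours. When members were linked across gaps of at most 1000 bp they formed 743 groups, of which 676 held a single member (81.0% of members). There were 49 groups of 2, 13 of 3, 3 of 4 and 2 of 5, and 61 members (7.31%, interval 5.73 to 9.27) were in the 18 groups of at least 3. Links of at most 100 bp gave the same 61 members in such groups, and links of at most 10000 bp gave 62. Links of at most 100000 bp gave 36 groups of at least 3 with 123 members (14.7%, interval 12.5 to 17.3). The median gap between neighbouring members on a chromosome was 1.12 Mb, with quartiles of 0.225 and 3.68 Mb, and 86 of 816 gaps were at most 100 bp. Groups of at least 2 spanned a median of 21 bp.

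The 18 groups of at least 3 lay on 12 autosomes, with 4 on chromosome 8, 3 on chromosome 11 and 2 on chromosome 10, and spanned 13 to 129 bp. In 13 of them every covered position between the first and the last was a member. Their pooled levels, which sum the calls of the members, ran from 5.13% to 38.0% in iPSC-DA neurons, 64.7% to 92.9% in iPSCs, 83.4% to 98.5% in mdDA neurons and 85.3% to 100% in NESTIN-GFP precursors. The pooled precursor level includes members with under 5 calls, and at chr17:88331170-88331209 it rests on 12 calls, with no member at 5 or more. Covered positions within 1 kb outside the span were available for 11 groups. Their median iPSC-DA level was 19.1% to 52.8% for 7 groups and 73.2% to 97.3% for the other 4. The covered positions nearby were thus lower at some groups than at others. These medians rest on 2 to 6 positions per group and take no account of their distance, so that they do not show where a low stretch ends.

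The best populated group, of 5 members among 6 covered positions at chr11:120416389-120416510, had 26.7% in iPSC-DA neurons (interval 23.1 to 30.6, 529 calls), 84.4% in mdDA neurons (411 calls), 75.5% in iPSCs (318 calls) and 89.1% in NESTIN-GFP precursors (interval 79.1 to 94.6, 64 calls). Its members were at 33.3%, 31.1%, 17.8%, 22% and 30.5% in iPSC-DA neurons, and the lowest mdDA level among them was 80.4%. The other group of 5, at chr8:72398770-72398898, had 31.5% in iPSC-DA neurons (216 calls), 90.1% in mdDA neurons (111 calls), 72.1% in iPSCs (86 calls) and 92.6% in NESTIN-GFP precursors (121 calls). The covered positions on either side of it were at 42.5% and 41.1% in iPSC-DA neurons, just over the threshold. In both groups the members with at least 5 precursor calls were higher in the precursors than in iPSC-DA neurons. In the group on chromosome 11 only 2 of the 5 members had that many. Levels in iPSCs and mdDA neurons lie above those in iPSC-DA neurons by the choice of members. That choice, with its low iPSC-DA levels, also favours the direction seen for the precursors.

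**Figure D4:**
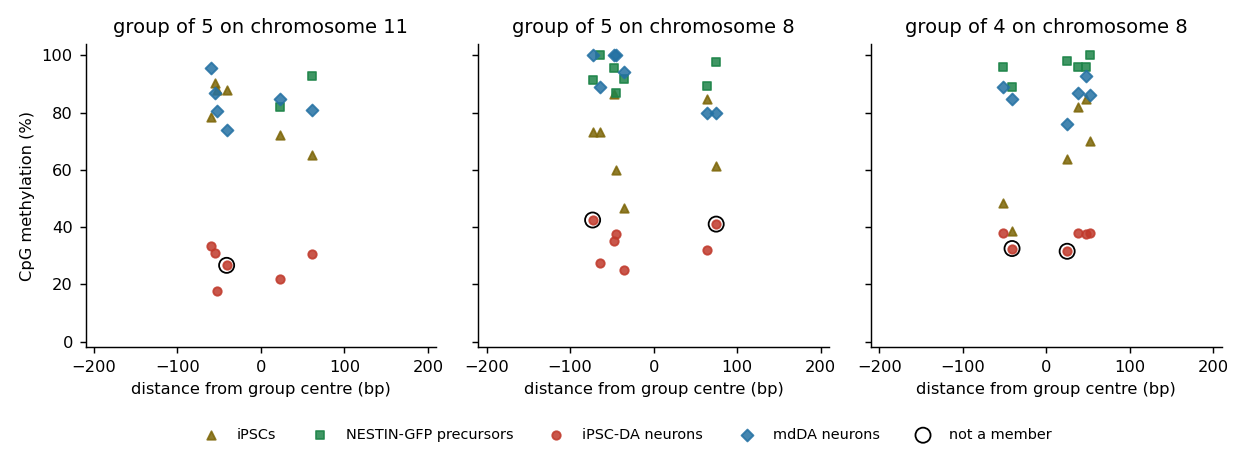
Methylation level in percent of each covered position against its distance in bp from the group centre, for the 3 best populated groups, with one symbol per library and rings at positions that are not members. All iPSC-DA levels (red circles) of members lay at 38.1% or lower, and their precursor levels (green squares, at least 5 calls) at 82.1% or higher.

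The 3 groups of 4 had like profiles. At chr8:113317515-113317619 the pooled level was 37.8% in iPSC-DA neurons (751 calls), 88.7% in mdDA neurons, 73.5% in iPSCs and 97.0% in NESTIN-GFP precursors (198 calls), and the 4 members were within 37.5% to 38.1% in iPSC-DA neurons. At chr8:123711391-123711426 it was 30.1% in iPSC-DA neurons (369 calls), 94.2% in mdDA neurons, 66.7% in iPSCs and 97.2% in the precursors. The positions flanking this group were lower still in iPSC-DA neurons, at 14.3% and 23.9%, and had a median of 73.9% in mdDA neurons, under the level asked of candidates. At chr11:113158375-113158473 the level was 26.8% in iPSC-DA neurons (302 calls), 92.1% in mdDA neurons, 79.8% in iPSCs and 100% in the precursors (36 calls).

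Among the groups of 3 with most iPSC-DA calls, chr8:87223068-87223090 had 32.7% in iPSC-DA neurons (735 calls), 92.6% in mdDA neurons, 74.3% in iPSCs and 95.5% in NESTIN-GFP precursors. At chr10:5725087-5725161 the values were 38.0% (505 calls), 94.1%, 75% and 95.8% in the same order of populations. At chr9:106378173-106378214 they were 33.1%, 83.6%, 70.8% and 87.8%, with 1 member at 60% in 10 precursor calls. At chr16:62343360-62343464 they were 33.2%, 83.4%, 83.3% and 99.1%, so that iPSCs and mdDA neurons were alike there. At chr7:70947906-70948009 they were 32.4%, 93.5%, 73.2% and 89.6%.

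By precursor level, the groups at chr14:26354472-26354576 (85.3% of 75 calls), chr9:106378173-106378214 and chr7:70947906-70948009 were the lowest 3 of those with at least 5 precursor calls at 3 members or more. The highest were chr13:4829243-4829257 (100% of 59 calls), chr11:113158375-113158473 and chr10:67239851-67239870 (98.6% of 138 calls). Within the group on chromosome 13 the 3 members, over 15 bp, were at 36.5%, 27.0% and 3.17% in iPSC-DA neurons, each over 63 calls, while they were at 95.5% to 100% in mdDA neurons and at 89.3% to 94.6% in iPSCs. Members of a single group could thus differ widely in iPSC-DA neurons alone.

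The 5 single members with the largest difference between mdDA and iPSC-DA neurons, among those with at least 20 calls in the 3 libraries, were at 8.11% to 23.5% in iPSC-DA neurons. The largest difference was at chr10:126132320, with 8.77% in iPSC-DA neurons (interval 4.83 to 15.4, 114 calls), 100% in mdDA neurons (20 calls), 92.7% in iPSCs (41 calls) and no call in NESTIN-GFP precursors. A CpG position 10 bp away was at 71.9% in iPSC-DA neurons. At chr4:148734311 iPSC-DA neurons had 23.5% (51 calls), mdDA neurons 100% (30 calls), iPSCs 97.4% (39 calls) and NESTIN-GFP precursors 100% (19 calls), and its covered neighbours, the nearest 8 bp away, were at 96.6% and 100% in iPSC-DA neurons. In both cases a covered position within the length of a read was far higher in iPSC-DA neurons than the member itself.

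At chr10:70488038 iPSC-DA neurons had 8.11% (37 calls), mdDA neurons 85% (20 calls), iPSCs 69.0% (29 calls) and NESTIN-GFP precursors 86.4% (22 calls), and its 5 neighbours within 1 kb were at 52.4% to 88.1% in iPSC-DA neurons. At chr7:105264126 iPSC-DA neurons had 17.9% (84 calls), mdDA neurons 92.9% (85 calls), iPSCs 57.8% (64 calls) and NESTIN-GFP precursors 97.6% (41 calls), with the nearest covered neighbour 919 bp away. At chr18:74095795 iPSC-DA neurons had 19.2% (26 calls), mdDA neurons 93.7% (159 calls), iPSCs 65.9% (91 calls) and NESTIN-GFP precursors 97.5% (40 calls), and a neighbour 20 bp away was at 57.7%. The precursors were above the iPSC-DA neurons at each of the 4 single members they covered. These members were picked for low iPSC-DA levels, so that this direction is in part fixed by the choice.

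Under-methylated CpGs were found on all 19 autosomes, at unequal shares of the candidates. The share ran from 0.497% on chromosome 3 (21 of 4222) to 1.48% on chromosome 10 (82 of 5524, interval 1.20 to 1.84), a ratio of 2.98. Chromosome 10 also stood apart in depth: its calls in iPSC-DA neurons relative to mdDA neurons were 0.42 higher on the log2 scale than those of the autosomes together, where the other autosomes were within 0.14 of them. With at least 50 iPSC-DA calls its share was 1.43%, against 0.305% to 1.03% on the other autosomes, and without chromosome 10 the share of all candidates was 0.818%. The part of the extra calls in the share on chromosome 10 was not tested.

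**Figure D5:**
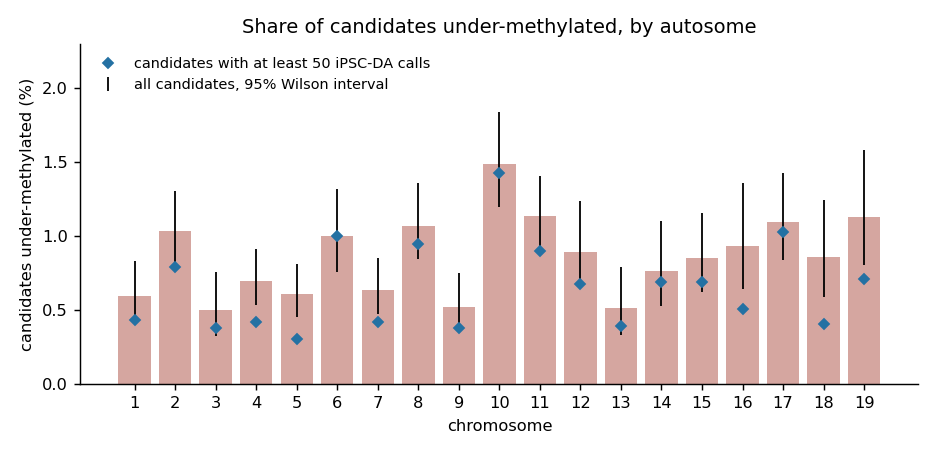
Percent of candidate CpGs that were under-methylated on each autosome (bars from 0, with 95% Wilson intervals) and the same for candidates with at least 50 iPSC-DA calls (diamonds). Chromosome 10 had 1.48%, and 1.43% at that depth, and chromosome 3 had 0.497%.

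In windows of 1 Mb, 556 of 2403 windows with a candidate held an under-methylated CpG, and 10 windows held at least 5. The fullest was at 120 to 121 Mb of chromosome 11, with 8 members of 163 candidates (4.91%), and includes the group of 5 described above. The window at 5 to 6 Mb of chromosome 10 held 5 of 46 (10.9%), 3 of them in 1 group. By distance from the nearest CpG cluster the share was 0.821% under 2 kb (interval 0.552 to 1.22), 0.698% at 2 to 10 kb (0.574 to 0.848), 0.761% at 10 to 50 kb (0.674 to 0.858) and 0.978% at 50 kb or more (0.892 to 1.07), and members lay a median of 56166 bp from a cluster against 44539 bp for retained CpGs. By local density it was 0.941% for positions that stood alone in their run, 1.02% in runs of 2 or 3 covered positions, 0.724% in runs of 4 to 6 and 0.447% in runs of 7 to 9, so that under-methylated CpGs were scarcest in the denser runs outside clusters.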

How the data were processed

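RRBS data of 4 libraries were used, with 1 for each population. According to the paper's methods and the submitters' processing notes, the authors used FastQC to check the 40-base reads, Trim Galore 0.3.5 to trim them, and Bareback with Bismark 0.10.1 for alignment and methylation calls. For each cytosine position the authors deposited the counts of methylated and of unmethylated calls, not normalized, and the percent of methylated calls, which follows from these counts. No coverage filter had been applied. The genome build is not given in the sources used here. Libraries held 31419979 (NESTIN-GFP precursors), 68545752 (iPSCs), 72993474 (mdDA neurons) and 79648099 (iPSC-DA neurons) calls, and a level from 10 calls is coarse.

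Positions were kept by strand, since no genome of the build was used. The NESTIN-GFP level of a single position was taken at 5 calls or more, while pooled levels of groups sum the calls of all their members. Shares have Wilson 95% intervals, and medians have order-statistic intervals. Neighbours were covered positions outside clusters, averaged per member in each distance class, and groups were linked across gaps of at most 1000 bp. With 1 library per population no test was run. Regions named are the 10 groups with most members (ties by iPSC-DA calls), the 5 single members with at least 20 calls in the 3 libraries and the largest mdDA minus iPSC-DA difference, and, among groups of at least 3 members with at least 5 NESTIN-GFP calls each at 3 of them, the 3 lowest and 3 highest in NESTIN-GFP level. The low single members in the precursors were named after their values were seen. The members, lists and settings were chosen with earlier results of these data known. Alternatives were other call minimums, cluster definitions, level thresholds, link distances and NESTIN-GFP minimums, leaving out the deepest positions, and merging strands. A setting without chromosome 10 was added after seeing the data. The code was tested on simulated data and ran in Python 3.11.15 with numpy 2.4.6, pandas 2.3.3, scipy 1.17.1 and matplotlib 3.10.9.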

Additional observations from a re-analysis of the deposited data

Results flagged for a closer look

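The X chromosome was outside the choice of positions, and the same thresholds picked positions there too. Of 2413 X candidates 15 (0.622%, Wilson interval 0.377 to 1.02) were under 40% in iPSC-DA neurons, with a median of 31.1% beside 89.7% for the other X candidates. In NESTIN-GFP precursors 10 of the 15 had at least 5 calls, with a median of 86.2%, and 0 were under 40%.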

How the results depend on the processing

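The main values were 835 under-methylated CpGs, 0.856% of candidates, 7.31% of them in groups of at least 3, and a NESTIN-GFP median of 95.7% with 0% under 40%. A minimum of 5 calls gave 1384 CpGs, 1.16% of candidates and a NESTIN-GFP median of 97.1%, and one of 20 calls gave 525, 0.707% and 94.1%. An iPSC-DA limit of 30% gave 225 CpGs, 0.231% of candidates, 4% in groups and a median of 96.7%, and one of 50% gave 2510 and 2.57%. An mdDA minimum of 90% gave 416 CpGs, 0.529% and a median of 97.1%, and an iPSC minimum of 60% gave 0.800% of candidates. Clusters of at least 5 positions gave 0.948% of candidates and 2.80% in groups, with fewer positions tested. Merging strands gave a NESTIN-GFP median of 93.9%. The cause of the other shifts was not tested. Other values moved by less than their interval or, for the number of CpGs, by less than 1.5 times, including those without chromosome 10. The share under 40% in NESTIN-GFP precursors was 0% to 0.385% in 14 alternatives. No paired analysis was possible because each population has 1 library, and for the same reason no replicate could be left out. Depth limits single positions: at a median of 44 iPSC-DA calls, a level just under 40% cannot be told apart from one just over it.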
